A study of Mus musculus with 11 samples.

Results

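The 9 genes described here are Txnip, Arrdc1, Arrdc2, Arrdc3, Arrdc4, Foxo1, Foxo3, Foxo4 and Ypel3, which encode alpha-arrestins, FoxO transcription factors and a member of the Yippee-like family. They were taken by gene symbol from the 37991 Ensembl gene IDs of the count table, and all 9 had counts in every library. The list was selected on the group differences that these genes showed in earlier results of these data, all 3 comparisons included, so its values are given as a description and not as independent support for any pattern.

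RNA-Seq was performed by the authors on aliquots of 1000 hematopoietic stem cells (HSC), sorted from the bone marrow of C57BL/6 mice at 8 weeks of age as Lin-CD48-c-Kit+Sca1+CD135-CD150+ cells. NA10hd mice (4 libraries) carried NUP98-HOXA10HD, a fusion of a nucleoporin with the DNA-binding homeodomain of HOXA10, knocked in at the ROSA26 locus behind a loxP-flanked stop with a 3xFlag tag and IRES-tdTomato, and opened by Vav-Cre. NV mice (3 libraries) carried a loxP-stop Nras G12D allele beside a normal one, opened by the same Vav-Cre, which acts across the blood system and so also in cells other than HSC. Controls (4 libraries) were labelled wild type and described in the methods as littermates. Since no label ties an aliquot to an animal, the p-values measure only the spread between these libraries, which may be technical.

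Alpha-arrestins are adaptor proteins that bring ubiquitin ligases of the Nedd4 family to membrane proteins. Txnip, the best known of them, binds thioredoxin and lowers glucose uptake, and its transcription follows cellular glucose through the factors Mlxip and Mlx. FoxO factors are held in the cytoplasm when PI3K and Akt signal, and otherwise drive genes of cell cycle arrest, resistance to oxidative stress and autophagy. In HSC, FoxO factors and Txnip are known for keeping the pool quiescent and its reactive oxygen low, and Ypel3 is known as a p53-responsive gene that slows growth.

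Of the 9 genes, 8 had an entry among the RefSeq promoters (build GRCm38.p6), in 10 entries since Arrdc3 had several start sites. Foxo4 had none. The 250 bases before the start site are shown for Txnip (chr3:96557707-96557956, plus strand), Arrdc4 (chr7:68749239-68749488, minus strand), Arrdc3 at its first start site (chr13:80883134-80883383, plus strand) and Ypel3 (chr7:126776713-126776962, plus strand), because these are the most abundant of the 9 genes and the 3 others with the smallest p against control in at least one genotype. Capitals mark matches to CACGTG (the E-box), to GTAAACA (a FoxO site) and CCAAT (the CCAAT box) on either strand, and the tandem E-box-like element of Txnip (CACGAG on both sides of a short spacer), which was searched with the fifth letter of either side left free and was added to the search after the Txnip sequence had been seen.
Txnip: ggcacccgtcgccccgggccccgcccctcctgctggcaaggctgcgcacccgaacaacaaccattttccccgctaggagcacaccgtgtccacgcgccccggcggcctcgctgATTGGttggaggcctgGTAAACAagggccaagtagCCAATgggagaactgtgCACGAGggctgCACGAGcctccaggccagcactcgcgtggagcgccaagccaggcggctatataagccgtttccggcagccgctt
Arrdc4: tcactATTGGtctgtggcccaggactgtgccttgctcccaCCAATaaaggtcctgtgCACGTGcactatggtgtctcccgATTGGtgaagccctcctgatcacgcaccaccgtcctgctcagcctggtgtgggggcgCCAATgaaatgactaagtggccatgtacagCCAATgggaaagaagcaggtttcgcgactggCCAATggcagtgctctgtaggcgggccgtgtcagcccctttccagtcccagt
Arrdc3: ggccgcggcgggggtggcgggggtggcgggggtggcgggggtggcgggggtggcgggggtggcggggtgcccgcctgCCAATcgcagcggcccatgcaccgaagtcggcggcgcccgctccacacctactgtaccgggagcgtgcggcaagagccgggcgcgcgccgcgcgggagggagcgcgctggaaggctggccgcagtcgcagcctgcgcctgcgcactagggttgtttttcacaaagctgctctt
Ypel3: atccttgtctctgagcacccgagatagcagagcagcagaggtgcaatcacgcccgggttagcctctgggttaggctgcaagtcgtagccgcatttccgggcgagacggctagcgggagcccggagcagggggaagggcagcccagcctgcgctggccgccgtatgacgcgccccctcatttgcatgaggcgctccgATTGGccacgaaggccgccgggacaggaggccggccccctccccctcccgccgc

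The Txnip promoter held the tandem element with its first base 85 bases before the start, a FoxO site whose first base lay at -121, and CCAAT boxes at -137 and -102. The tandem pattern, with those letters free, was found in 16 of 32851 RefSeq promoters of the same 300-base length (0.0487%), and the FoxO site in 3.65%. Arrdc4 had an E-box at -193, present in 7.15% of promoters, and 6 CCAAT boxes, a motif that 37.4% of promoters held at least once. Ypel3 had a FoxO site at +26, beyond the stretch shown, and a CCAAT box at -54. The Arrdc3 promoter shown held 1 CCAAT box and no match to the other motifs. A match is a run of letters and was not tested for binding. These coordinates belong to GRCm38.p6, whereas the reads were counted on NCBIM37, whose positions are used from here on.

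Total counts ran from 5464815 to 14283008 per library, and levels are given as CPM, the usual per-million scale, from library totals times TMM factors. Replicates of NA10hd stood farther from their group mean (median absolute log2 deviation 0.329 to 0.418) than those of control (0.207 to 0.249) or NV (0.170 to 0.193). NA10hd replicate 4 had Xist and no Y-linked counts, the other NA10hd libraries and control replicates 1 and 4 had the reverse, and the rest had both. Sex and genotype therefore cannot be told apart between NA10hd and NV. Kit, Ly6a and Slamf1, which code for proteins of the gate, were detected in every library, and 9 genes that the gate excludes summed to 6.06 to 22.5 CPM, with Cd2 and Cd3e at 0 throughout. The 8 genes of the HSC marker list summed to 2205 to 2734 CPM in the control libraries, 1888 to 2345 in those of NV and 2442 to 3097.5 in those of NA10hd. Of the 8, edgeR called 1 higher (Ly6a) and 2 lower in NV against control, with 6 lower at an unadjusted p under 0.05. In NA10hd against control it called none (1 at an unadjusted p under 0.05, 1 higher by DESeq2), and in NA10hd against NV it called 4 higher. Nras was at 112 CPM ± 1.36 (SD, n = 3) in NV, 83.9 ± 12.4 (n = 4) in control and 95.9 ± 12.2 (n = 4) in NA10hd. It was not called by edgeR in NV against control (log2 fold change 0.41, adjusted p = 0.124). The counts do not separate its alleles, and the fusion has no row of its own. Summed over 15 genes of dividing cells, the CPM were 471 to 561 in NA10hd libraries, 785 to 1232 in those of control and 2177 to 2532 in those of NV, without overlap. In NV against control, edgeR called 13 of these 15 genes higher, and 14 of them lower in NA10hd than in NV. In NA10hd against control edgeR called none of the 15, 13 were lower at an unadjusted p under 0.05, and DESeq2 called 6 lower. Over all tested genes, an unadjusted p under 0.05 was found for 11.9% in NA10hd against control and 19.5% in NV against control. Of the other marker lists, 2 of 2 tested erythroid genes were higher in NV (sum 42.6 to 82.2 CPM against 18.4 to 24.9 in control), 3 of 6 megakaryocyte genes were higher and 1 lower (277 to 593 against 310.4 to 336), and 2 of 4 tested endothelial genes were lower (48.2 to 67.1 against 118 to 163). In NA10hd these sums were 15.6 to 31.7, 239.9 to 407 and 145 to 273 CPM, with no gene of the 3 lists called against control by edgeR and 1 megakaryocyte and 1 endothelial gene at an unadjusted p under 0.05. DESeq2 called 1 gene of these lists, the endothelial Cldn5, higher in NA10hd (14.9 to 60.5 CPM against 5.68 to 12.9), a gene named after its values were seen. Myeloid genes summed to 745 to 1073 CPM and lymphoid genes to 42.3 to 107 CPM over all libraries, with Ctsg, Cd3g, Dntt and Pax5 at 0 as well. The part of the cycling, sex and marker genes in the results below was not tested, and in bulk RNA fewer cells of a type cannot be told from less RNA per cell.

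A gene was called when its adjusted p (Benjamini-Hochberg, over all tested genes) in edgeR's quasi-likelihood test was under 0.05 and its fold change was above 1.5. The comparisons of NV and of NA10hd with control share the 4 control libraries. Each log2 fold change below is followed by its standard error (SE).

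Among the alpha-arrestins, Arrdc4 fell in NV to about the level it had in NA10hd, and Arrdc3 was higher in NA10hd than in NV. Against control, the values of both in NA10hd stood outside the control range but did not pass edgeR's test. Arrdc4 (ENSMUSG00000042659, chr7:75881931-75894127, minus strand) encodes an alpha-arrestin that, like Txnip, is known to lower glucose uptake. It was at 103, 128, 113 and 96.8 CPM in control replicates 1 to 4, at 70.0, 62.5 and 63.1 CPM in NV replicates 1 to 3, and at 75.9, 52.1, 64.1 and 66.6 CPM in NA10hd replicates 1 to 4. Every NV and every NA10hd library lay below every control library, and the NV libraries lay within the NA10hd range. Arrdc4 fell in NV (log2 fold change -0.76, SE 0.14, adjusted p = 0.00893), the one call among the 9 genes in that comparison, where edgeR called 4.76% of 13462 tested genes (2.21% lower). DESeq2 called it too, beside 6.92% of genes, and 9.39% of the tested genes were below control without overlap. The edgeR call was lost without NV replicate 2 (adjusted p = 0.0515), without NV replicate 3 (0.0548) and with all 3 groups in one fit (0.0545). With control replicates 2 and 3, which hold both sexes as the NV libraries do, the log2 fold change was -0.89 (adjusted p = 0.0253). In NA10hd the log2 fold change was of similar size (-0.77, SE 0.18) but did not pass (adjusted p = 0.192), whereas DESeq2 called it (adjusted p = 0.00475). Between NA10hd and NV the Arrdc4 difference was -0.02 with a 95% interval from -0.46 to 0.42.

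Arrdc3 (ENSMUSG00000074794, chr13:81022645-81035296, plus strand) encodes an alpha-arrestin known for regulating membrane receptors and integrins. Its levels were 68.8, 66.9, 45.9 and 71.6 CPM in control and 145, 153, 130.3 and 168 CPM in NA10hd. In NV they were 88.6, 49.9 and 49.5 CPM. All 4 NA10hd libraries were above all the others, while NV replicate 1 was above and the other NV libraries were within the control range. Against control the log2 fold change in NA10hd was 1.24 (SE 0.18), rank 2 of 13060 tested genes by p, with an adjusted p of 0.0563 that missed the threshold. DESeq2 called it (adjusted p = 3.71e-07). With only the libraries that had Y-linked counts and no Xist, the log2 fold change was 1.02 (adjusted p = 0.798, 3 against 2 libraries). Against NV, Arrdc3 was higher in NA10hd (log2 fold change 1.24, SE 0.24, adjusted p = 0.0134), and this call was lost without NV replicate 2 (adjusted p = 0.102) or NV replicate 3 (0.103). In NV against control the log2 fold change was -0.02 (SE 0.23, adjusted p = 0.983). The lincRNA gene 1700023H06Rik, on the other strand within Arrdc3, had 219 counts in all 11 libraries together, and no source used here states whether counting used strand.

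Txnip (ENSMUSG00000038393, chr3:96361880-96365806, plus strand) was the most abundant of the 9 genes. It had 1122, 902, 1169 and 1214 CPM in control, 1049.6, 937, 1010.0 and 814 CPM in NA10hd, and 939.6, 922 and 803 CPM in NV. Control replicate 2 was the low library of its group and overlapped both genotypes. The log2 fold changes were -0.32 in NV (SE 0.11, adjusted p = 0.141) and -0.21 in NA10hd (SE 0.14, adjusted p = 0.603), neither called. Without control replicate 2 the NV value was -0.40 (adjusted p = 0.0321), under the 1.5-fold limit for a call. Gm15441, a lincRNA gene on the other strand that overlaps Txnip, had 182 counts in all libraries together.

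Arrdc1 and Arrdc2, alpha-arrestins whose products also bind Nedd4-family ligases, passed in no comparison. Arrdc1 (ENSMUSG00000026972, chr2:24780872-24790772, minus strand) had 82.9 to 111 CPM over the control libraries and 94.1 to 135 CPM over the NV libraries. NA10hd replicate 3 had 157 CPM and the other NA10hd libraries 92.1 to 98.5 CPM. Its log2 fold change in NA10hd was 0.18 (SE 0.20) and turned to -0.04 without that library. Arrdc2 (ENSMUSG00000002910, chr8:73359054-73363619, minus strand) was at 17.7, 20.5, 11.2 and 13.2 CPM in control, 25.3, 28.4, 17.3 and 30.2 CPM in NA10hd, and 8.59, 18.7 and 24.3 CPM in NV. Its groups overlapped in every comparison, and the NV libraries spanned a wider range than control. The log2 fold changes of Arrdc2 were 0.70 in NA10hd (SE 0.31, adjusted p = 0.402) and 0.13 in NV (SE 0.35, adjusted p = 0.885).

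**Figure D1:**
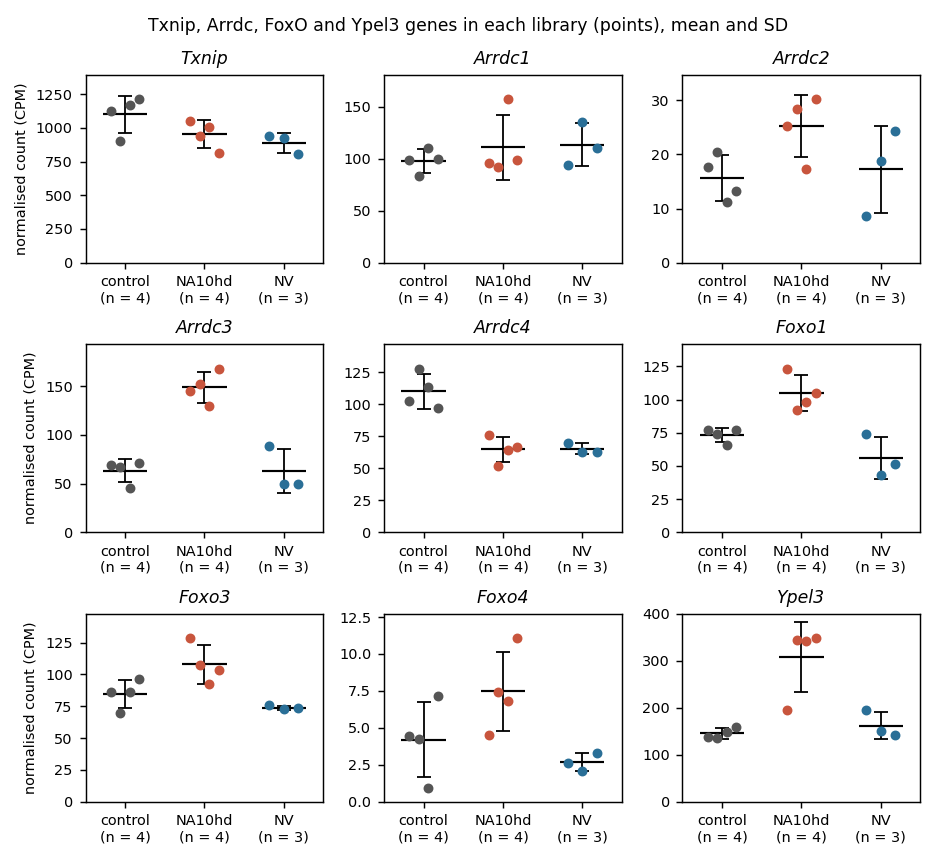
Normalised counts (CPM, y axis) of the 9 genes in each library (points) of control, NA10hd and NV HSC, with the group mean and SD as black bars. Arrdc3 in NA10hd (130.3 to 168 CPM) sat above all other libraries, Arrdc4 in both genotypes sat below the control libraries, and Ypel3 was high in 3 NA10hd libraries and lower in replicate 1 (195 CPM).

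Of the FoxO genes, Foxo1 was higher in NA10hd than in NV, and Foxo3 and Foxo4 had positive differences there that did not pass. Foxo1 (ENSMUSG00000044167, chr3:52072259-52154031, plus strand) encodes a factor known for roles in lymphocyte and HSC maintenance. It was at 76.9, 74.4, 65.4 and 77.1 CPM in control, at 123, 91.8, 98.5 and 105 CPM in NA10hd, and at 73.8, 42.8 and 51.7 CPM in NV. The 4 NA10hd libraries lay above all libraries of the other groups, and NV replicates 2 and 3 lay below all control libraries. Against NV the log2 fold change of Foxo1 was 0.89 (SE 0.23, adjusted p = 0.0451), among 5.09% of 13461 tested genes called (2.3% higher). That call was lost without any one of NA10hd replicates 1, 3 and 4 and of NV replicates 2 and 3 (adjusted p from 0.0515 without NA10hd replicate 4 to 0.225 without NV replicate 3). Against control neither genotype passed, with log2 fold changes of 0.52 in NA10hd (SE 0.17, adjusted p = 0.287) and -0.39 in NV (SE 0.19, adjusted p = 0.279).

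Foxo3 (ENSMUSG00000048756, chr10:41901647-41996561, minus strand), the FoxO factor best known for keeping HSC quiescent, was at 86.2, 69.6, 86.3 and 96.3 CPM in control. It was at 129, 108, 92.3 and 103 CPM in NA10hd and at 75.6, 72.5 and 73.4 CPM in NV. Each NA10hd library was above each NV library, and both groups overlapped control. The NA10hd minus NV log2 fold change of 0.54 (SE 0.18, adjusted p = 0.116) was under the fold limit, also in DESeq2 (adjusted p = 0.0217). Foxo4 (ENSMUSG00000042903, chrX:98449867-98456212, plus strand), which lies on the X chromosome, was the lowest of the 9 genes, with 12 to 93 counts per library. In CPM, control libraries held 4.47, 4.26, 0.956 and 7.13, NA10hd libraries 4.55, 7.4, 6.83 and 11.1, and NV libraries 2.63, 2.1 and 3.29. NA10hd and NV did not overlap, with a log2 fold change of 1.47 and an SE of 0.63 (adjusted p = 0.223). Its highest library, NA10hd replicate 4, was the one with Xist and no Y-linked counts.

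Ypel3 (ENSMUSG00000042675, chr7:133920469-133924028, plus strand) was higher in NA10hd than in NV. Its levels were 138, 135, 148 and 160.1 CPM in control, 195, 344, 343 and 348 CPM in NA10hd, and 194, 149 and 141 CPM in NV. Replicates 2 to 4 of NA10hd were close together and far above the rest, while NA10hd replicate 1 was barely above NV replicate 1. Against NV the log2 fold change was 0.92 (SE 0.23, adjusted p = 0.0419). Leaving out a single library ended that call in every case except without NA10hd replicate 1, where the adjusted p was 0.00772, and it reached 0.22 without NV replicate 3. Against control the log2 fold change in NA10hd was 1.09 (SE 0.19), rank 10 by p, with an adjusted p of 0.0847. It passed in DESeq2 (adjusted p = 9.22e-05) and, in edgeR, without NA10hd replicate 1 (log2 fold change 1.26, adjusted p = 0.0140). With only the libraries that had Y-linked counts and no Xist it was 0.99 (adjusted p = 0.989). In NV against control the Ypel3 value was 0.15 (SE 0.14, adjusted p = 0.617).

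By comparison, edgeR called none of the 9 genes in NA10hd against control, where it called 0.00766% of 13060 tested genes (1 gene). At an unadjusted p under 0.05 there were 5 of the 9, with 4 higher (Arrdc2, Arrdc3, Foxo1, Ypel3) and Arrdc4 lower, beside 11.9% of all tested genes, and DESeq2 called 3 (Arrdc3 and Ypel3 higher, Arrdc4 lower) beside 2% of genes. The libraries did not overlap for Arrdc3, Foxo1 and Ypel3 above control, beside 3.87% of all tested genes, and for Arrdc4 below it, beside 3.94%. In NV against control 1 of 9 was called and 2 (Txnip and Arrdc4) had an unadjusted p under 0.05, beside 19.5% of all tested genes. In NA10hd against NV, edgeR and DESeq2 each called 3 of 9, all higher, beside 5.09% and 10.6% of genes. There 5 of 9 had an unadjusted p under 0.05, beside 19.5%, and 5 of 9 were above NV without overlap, beside 9.63%. The median log2 fold change of the 9 genes was 0.52 in NA10hd against control, -0.20 in NV against control and 0.55 in NA10hd against NV, beside 0.02, -0.01 and 0.01 over all tested genes. As the genes were chosen with these contrasts known, nothing is read from the counts.

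**Figure D2:**
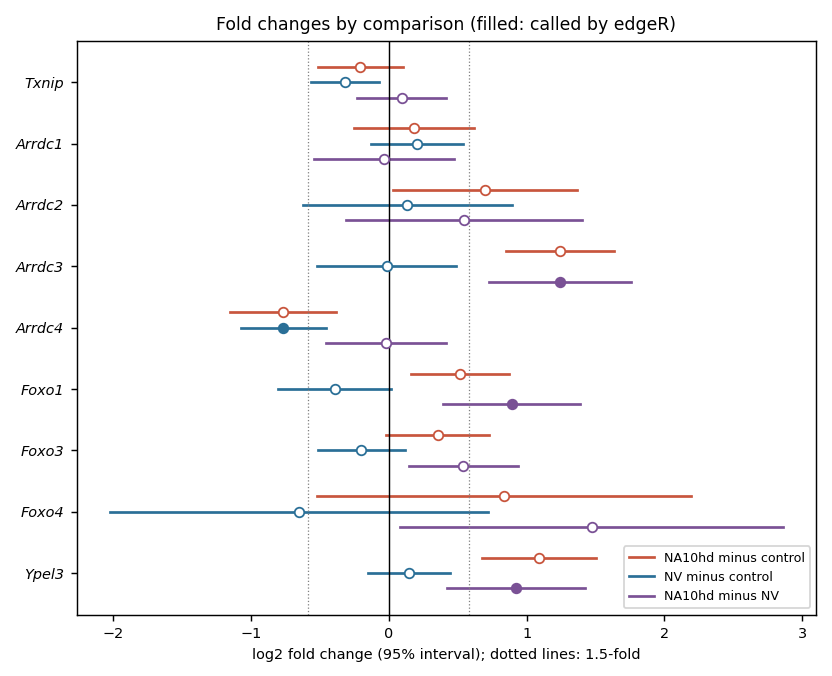
Log2 fold changes (x axis) of the 9 genes (y axis) in each comparison, with 95% intervals as lines, filled points where edgeR made a call and dotted lines at 1.5-fold. Filled are Arrdc4 in NV minus control (-0.76) and Arrdc3, Foxo1 and Ypel3 in NA10hd minus NV (1.24, 0.89 and 0.92).

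Around these genes, 106 genes of 6 lists (control of FoxO, FoxO targets, thioredoxin and glucose, arrestins and ligases, Ypel relatives, quiescence regulators) were examined, of which 100 were tested in NV against control. In NV edgeR called 1 of them higher and 8 lower than control (median log2 fold change -0.01), beside 4.76% of all tested genes, and this count of 9 became 1 without NV replicate 3, 2 without NV replicate 2 and 4 without control replicate 1. In NA10hd it called 6 higher and 2 lower than NV (median 0.13), beside 5.09%, and this count of 8 became 1 without any one NV library. NA10hd against control had none by edgeR (99 tested, median 0.12), 14 at an unadjusted p under 0.05 beside 11.9% of all tested genes, and 2 by DESeq2 beside 2%, shares close to those over all genes.

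Of the 15 genes that control FoxO factors, Pik3r1, the regulatory subunit of PI3K, was the one called by edgeR. DESeq2 also called Pik3cd, a catalytic subunit, higher in NA10hd than in NV (adjusted p = 0.0212), which was named after its values were seen. Pik3r1 was at 210.4, 138, 177 and 215 CPM in control, at 92.1, 110.3 and 77.8 CPM in NV, and at 228, 249.6, 274 and 121 CPM in NA10hd. All NV libraries lay below the others. Pik3r1 fell in NV (log2 fold change -0.99, SE 0.18, adjusted p = 0.00716) and was higher in NA10hd than in NV (1.22, SE 0.27, adjusted p = 0.0267). The Akt genes were not called in any comparison.

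Among 25 genes listed as FoxO targets, 23 were tested in NV against control. There edgeR called 1 higher and 1 lower (median log2 fold change 0.02), beside 4.76% of all tested genes. In NA10hd against NV it also called 1 higher and 1 lower (median 0.14), beside 5.09%. Gabarapl1, an autophagy gene, fell in NV (log2 fold change -0.61, SE 0.16, adjusted p = 0.0419) and was higher in NA10hd than in NV (log2 fold change 0.77, adjusted p = 0.0351). The other call of each comparison, not reported by name here, went the opposite way with a larger fold change than Gabarapl1. For Gabarapl1, the levels by library follow. Its levels were 189, 236.5, 223 and 163 CPM in control, 134, 155 and 112 CPM in NV, and 233, 204, 204 and 275 CPM in NA10hd. All NV libraries lay below all the others. Cdkn1b, a cyclin-dependent kinase inhibitor, was named after its values were seen. It had 17.1 to 34.2 CPM in NA10hd and 5.78 to 10.5 CPM in control with no overlap, but its adjusted p was 0.104 (DESeq2 0.000137). In NV it was at 14.3, 20.5 and 9.47 CPM, overlapping both other groups. The log2 fold change was 0.78 in NV against control (adjusted p = 0.231) and 0.96 in NA10hd against NV (adjusted p = 0.177), neither called.

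None of the 17 tested thioredoxin and glucose genes, the partners and pathway of Txnip, was called by edgeR or DESeq2 in either genotype against control. In each of those comparisons 1 of them had an unadjusted p under 0.05, beside 19.5% (NV) and 11.9% (NA10hd) of all tested genes. In NA10hd against NV edgeR called none of them, 4 had an unadjusted p under 0.05, beside 19.5% of all tested genes, and DESeq2 called 1, the glucose transporter gene Slc2a1, higher in NA10hd (adjusted p = 0.0291), a gene named after its values were seen. For Mlxip, which encodes the glucose-sensing factor named above, the log2 fold changes were 0.10 (NV) and -0.03 (NA10hd), a gene chosen after its values were seen. For the 15 tested arrestins, Nedd4-family ligases and cargo genes, the median difference between NA10hd and control was -0.16 on the log2 scale. None of them was called there by edgeR and 1 by DESeq2, with 3 at an unadjusted p under 0.05, beside 11.9% of all tested genes. In NV against control edgeR called 1 lower, and DESeq2 called 1 higher and 1 lower. An unadjusted p under 0.05 was found there for 5 of the 15, beside 19.5% of all tested genes. In NA10hd against NV neither tool called any, and 3 had an unadjusted p under 0.05, beside 19.5%. The other Ypel genes (3 of 4 tested) had no call by edgeR. Of these, 1 had an unadjusted p under 0.05 in NV against control and 1 in NA10hd against NV, each beside 19.5% of all tested genes. None of the Ypel genes tested here did so in NA10hd against control, beside 11.9%. DESeq2 called 1 of them, Ypel5, higher in NA10hd than in NV (adjusted p = 0.0346), a gene named after its values were seen.

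Of 27 quiescence regulators, edgeR called 5 lower in NV, beside 2.21% of all tested genes, and none higher, while DESeq2 called 5 lower and 2 higher (Cdkn2c and Pdcd4, the latter named after its values were seen). The 5 lower by edgeR were Cdkn1c, the kinase inhibitor p57 (log2 fold change -1.44, adjusted p = 0.0294), Klf4 (-1.16, 0.0114), Klf6 (-0.77, 0.0135), Zfp36 (-0.76, 0.0165) and Ndn (-0.62, 0.0258). Of these, Zfp36 and Ndn were named after their values were seen. Control levels of Cdkn1c were 68.3 and 62.1 CPM in replicates 1 and 4, and 27.7 and 25.7 CPM in replicates 2 and 3. Only control replicates 2 and 3 hold both sexes, as the NV libraries do (15.7 to 18.1 CPM). The part of sex was not tested. In NA10hd against control none of the 27 was called by edgeR or DESeq2, with 7 at an unadjusted p under 0.05, beside 11.9% of all tested genes. Against NV, where edgeR called 5.09% of all tested genes, the calls in NA10hd were Gfi1 (2.28, adjusted p = 0.0197), Cdkn1c (2.12, 0.000676), Ndn (0.95, 0.0250) and Btg2 (0.79, 0.0478) higher and Cdkn2c (-2.55, 0.0170) lower, Btg2 being named after its values were seen. The median over the 27 was -0.31 in NV, 0.11 in NA10hd and 0.41 between NA10hd and NV.

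**Figure D3:**
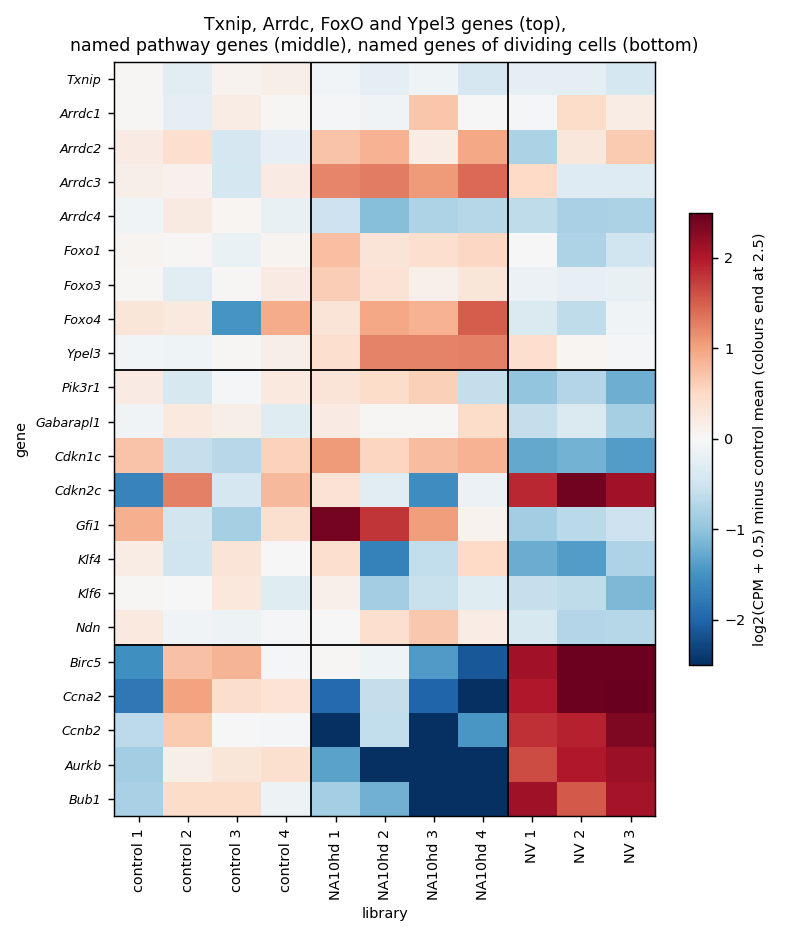
Log2(CPM + 0.5) minus the control mean (colour, red higher and blue lower, ending at 2.5) for each library (columns) and gene (rows), with the 9 genes at the top, named pathway genes in the middle and named genes of dividing cells at the bottom. Arrdc3, Foxo1 and Ypel3 are red in NA10hd, Arrdc4 is blue in both genotypes, and the genes of dividing cells are red in NV.

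Per length, as mean CPM per kb of exon, the 9 genes spanned from 363 for Txnip to 1.21 for Foxo4 in control. Ypel3 was second (78.6), followed by Arrdc1 (39.1), Arrdc4 (27.6), Foxo1 (13.2), Foxo3 (11.7), Arrdc3 (10.1) and Arrdc2 (6.72). In control the neighbours Foxo1 and Foxo3, Foxo3 and Arrdc3, and Arrdc3 and Arrdc2 overlapped in their ranges, and the other neighbours did not. In NA10hd Arrdc3 ranked 4 (23.8 CPM per kb, against rank 7 in control) and Arrdc4 ranked 6 (16.2, against rank 4), with ranges that overlapped those of their neighbours except between Arrdc1 and Arrdc3. In NV Arrdc4 kept rank 4 (16.3), and Foxo3 (10.2), Foxo1 (10.1), Arrdc3 (10.01) and Arrdc2 (7.4) overlapped from one to the next.

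**Figure D4:**
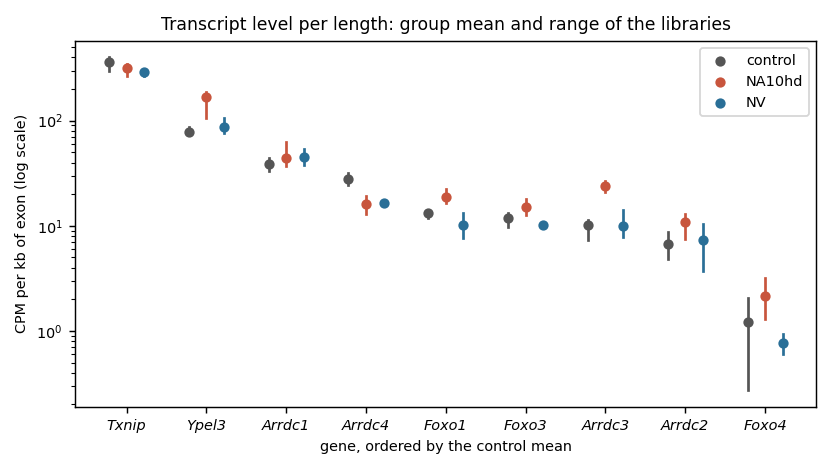
Mean level per length (CPM per kb of exon, log axis) of the 9 genes, ordered by the control mean, with lines from the lowest to the highest library of each group. Txnip is at 293 to 363 CPM per kb by group mean, and the NA10hd range of Arrdc3 lies above its control and NV ranges.

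Over the 11 libraries, the genes whose log2 CPM profiles were closest to each of the 9 were found by the root mean square (RMS) difference after centring, as a description. For Txnip these were Vcpip1 (RMS difference 0.0801), Rock1 (0.121) and Marveld1 (0.126). For Arrdc3 they were Dennd1a (0.248), Cd82 (0.266) and Neurl3 (0.277). Arrdc4 was closest to Klraq1 (0.179), Stt3a (0.198) and Rrp15 (0.206). Ypel3 was closest to Tnfrsf18 (0.137), 2810008D09Rik (0.229) and Golga2 (0.234). The nearest genes were Tbc1d20 for Foxo1 (0.170), Lmo2 for Foxo3 (0.132), Exoc3l for Foxo4 (0.280), RP23-115O3.9 for Arrdc1 (0.134) and 2810422J05Rik for Arrdc2 (0.261). The median RMS difference over all genes ran from 0.497 for Txnip to 0.947 for Foxo4. Within the 9 genes, Foxo1 and Foxo3 were the closest pair (0.256) and Arrdc4 and Foxo4 the farthest apart (1.01).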

How the data were processed

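Libraries were made by the authors from sorted HSC by cDNA amplification and the Nextera XT kit. Per the submitters' processing notes, reads were aligned with HISAT2 to NCBIM37 and counted with featureCounts, and the authors deposited raw counts per gene without normalization. Versions and the strand setting are not given in the sources used here. Symbols and positions came from GENCODE annotation of that build, which held 37205 of 37991 IDs. Depth was 5464815 to 14283008 counts per library, and reads carry no molecular identifiers.

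Groups followed the genotype labels. Each comparison was fitted on the libraries of its own groups with edgeR 4.0.16 (R 4.3.3), TMM, its default low-count filter and the quasi-likelihood test, Benjamini-Hochberg adjustment and a fold limit of 1.5. DESeq2 1.42.0, limma-voom (limma 3.58.1), the likelihood ratio test, other filters, scalings and libraries were alternatives.

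The 9 genes, the lists and the tests were chosen with earlier results of these data known. Named genes were the 9, at most 3 called genes per list, comparison and direction, and the 3 nearest profiles of each of the 9. Promoters were RefSeq sequences from 250 bases before to 50 after the start. Some genes of the lists are not reported by name here.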

Additional observations from a re-analysis of the deposited data

Results flagged for a closer look

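In each group of 4 libraries, the highest or lowest library was compared with the others by Dixon's ratio of its gap to the range of the group, in 52 sets of 4 libraries. Such a test picks out about 1 in 20 groups by chance, and 2 of the 52 were picked out here. Ypel3 in NA10hd replicate 1 was at 195 CPM, below the other NA10hd libraries at 343 to 348 CPM (ratio 0.965). Arrdc1 in NA10hd replicate 3 was at 157 CPM, above the other NA10hd libraries at 92.1 to 98.5 CPM (ratio 0.902).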

How the results depend on the processing

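In NA10hd against control, edgeR called 0 of the 9 genes, against 3 with DESeq2 or the likelihood ratio test, 2 without a filter on low counts, with at least 10 counts in every library or with all 3 groups in one fit, and 1 with limma-voom. For the pathway genes the count was 0, against 2 with DESeq2 and 1 with one fit or the likelihood ratio test. In NV against control, 1 of the 9 genes and 9 pathway genes became 0 and 1 with one fit. In NA10hd against NV, the 8 pathway genes became 15 with DESeq2 and 13 with one fit or the likelihood ratio test. With each library left out in turn, the count of the 9 genes called ran from 0 to 1 in NV against control (0 without NV replicate 2 or 3), from 0 to 1 in NA10hd against control (1, Ypel3, without NA10hd replicate 1) and from 0 to 2 in NA10hd against NV (0 without NV replicate 2 or 3, 1 without NA10hd replicate 3 or 4). The pathway count ran from 1 to 8 in NV against control (1 without NV replicate 3, 2 without NV replicate 2, 4 without control replicate 1), stayed at 0 in NA10hd against control, and ran from 1 to 12 in NA10hd against NV (1 without NV replicate 1, 2 or 3). Some values changed sign. In NV against control Foxo4 went from -0.65 to 0.033 with libraries of the same sex mix. Others, nearer to 0, were Arrdc3 (0.15 with the same sex mix, and -0.35 to 0.12 with a library left out), Arrdc2 (-0.20 to 0.46) and Ypel3 (-0.0052 to 0.23). Arrdc1 ran from -0.042 to 0.26 in NA10hd against control. In NA10hd against NV, Arrdc1 ran from -0.26 to 0.11 and Arrdc4 from -0.10 to 0.085, with 0.0013 under DESeq2 size factors. The cause was not tested. Same-numbered libraries did not deviate together (10 pairs, correlation of deviations -0.0741 to 0.0367), so the replicate block is an alternative only. Under the block 1 of the 9 genes and 9 pathway genes were called in NV against control, 0 and 0 in NA10hd against control, and 2 and 8 in NA10hd against NV, where Ypel3 was at 0.83 (adjusted p = 0.103), and in NV against control Arrdc2 was at -0.011 and Arrdc3 at 0.012. Of the single genes, 241 values under other settings kept their direction and side of the threshold, 13 were newly called, 2 lost their call and 5 changed sign. No fit with the same sex mix was possible for NA10hd against NV. Depth limits Foxo4 most, at 12 to 93 counts per library.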
